A study of Mus musculus with 3 samples.

Results

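The small nucleolar RNA (snoRNA) host noncoding genes described here are Gas5, Snhg1, Snhg3, Snhg4, Snhg5, Snhg6, Snhg8 and Snhg12, selected by symbol. Of the 8 symbols, 7 were found by gene identifier among the 50600 genes of the deposited count tables. Snhg4 was found by position only and is given separately. The libraries were made from total RNA of mouse T-helper 1 cells, a CD4 T cell subset, taken as primary cells of strain C57BL/6NJ. There was 1 group of 3 biological replicates, with no second condition, no stated treatment or transgene, unknown age and sex not collected. The headers of the count files carry the tag 16hr, whose meaning no label gives. The 3 samples have separate biosample records but share a donor record, so the spread between them may be partly technical.

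Most snoRNAs of mammals are cut from introns of longer transcripts, and in these host genes the spliced exons encode no known protein. Box C/D snoRNAs guide ribose methylation of ribosomal RNA, and box H/ACA snoRNAs guide pseudouridylation or, as Snora73 (U17) does, serve in processing of the ribosomal precursor. Transcripts of this class, Gas5 among them, typically begin with a run of pyrimidines as ribosomal protein mRNAs do, and their spliced forms are known targets of nonsense-mediated decay, the pathway that removes mRNAs with early stop codons. Gas5 was named for its accumulation in growth-arrested cells and has been studied in T cells for its link to proliferation.

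Total gene counts were 4764598 in replicate 1, 2568928 in replicate 2 and 2815439 in replicate 3. Of the 7 T cell markers examined, 7 reached a level of at least 1 TPM in every library (TPM is the count per kilobase of gene, scaled to a fixed sum per library), with Cd4 at 243, 191 and 123 TPM in replicates 1, 2 and 3. The defining T-helper 1 genes had counts near 0: Tbx21, the lineage regulator, had 2, 10 and 2 and Ifng, the signature cytokine, had 1, 0 and 0. Of 8 markers of other cells, 1, the CD8 chain gene Cd8b1, reached that level in every library. The B cell gene Cd79a had 8.22, 0 and 7.34 TPM. Xist had 807, 1110 and 4 counts, and 4 Y-linked genes together had 395, 0 and 215, so the libraries differed in sex markers despite the shared donor record. Replicate 3 stood apart in that 71.6% of its counts lay on genes with exons facing exons of the other strand, against 56.1% in replicate 1 and 60.3% in replicate 2. The mitochondrial gene mt-Nd6, which lies on the strand opposite to mt-Co1, exceeded it per kilobase by factors of 6.40 in replicate 1, 10.3 in replicate 2 and 24.5 in replicate 3. The counting kept 1 strand, per the file headers, and the library kit is not given in the sources used here. Whether the counted strand is the strand of the RNA was not tested. Every level in this report, those of the markers above included, is therefore a level of counted fragments.

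All 7 host genes matched by identifier were detected, meaning at least 1 TPM in every library. Over all genes 20.9% were detected, and over genes annotated as lincRNA or processed transcript 7.93%. Their levels ran from 22.6 TPM for Snhg3 to 105 TPM for Gas5 as means of 3 libraries. The 7 genes together held 2296, 1120 and 682 counts in replicates 1, 2 and 3. Their summed share of TPM was 0.0340% ± 0.0135 (SD, n = 3).

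**Figure D1:**
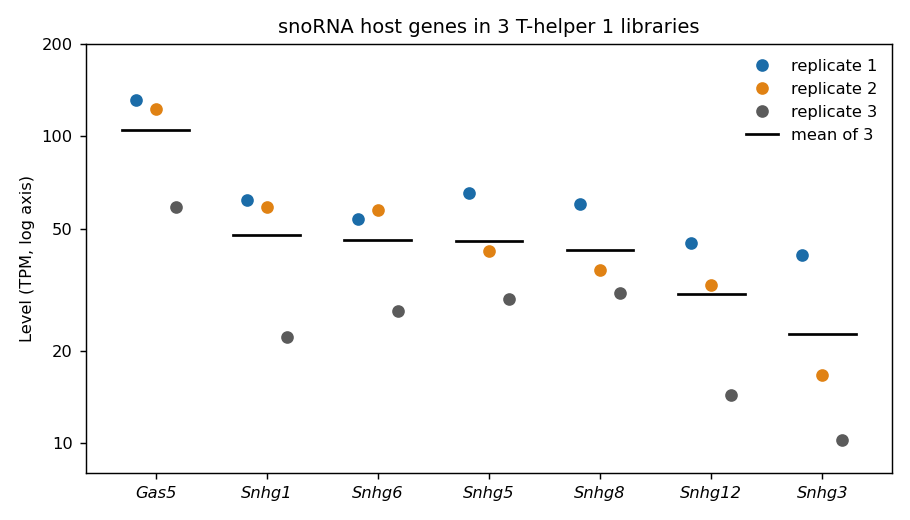
Level of each snoRNA host gene in TPM on a log axis; points are the 3 libraries, offset by replicate, and the black line is their mean. Replicate 3 was the lowest library for all 7 genes, from 58.9 TPM for Gas5 down to 10.2 TPM for Snhg3.

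Gas5 (ENSMUSG00000053332, chr1:161034422-161038539, plus strand, mm10) had the highest level, with 1116, 591 and 352 counts in replicates 1, 2 and 3. These were 132, 123 and 58.9 TPM, or 105 ± 39.8 (SD, n = 3). Replicates 1 and 2 lay close together and replicate 3 was at less than either. Gas5 made up 51.0% ± 2.15 (SD, n = 3) of the counts of the 7 genes, from 48.6% to 52.8%, while its level moved by a factor of 2.24 between replicates 1 and 3. Its body overlaps that of Zbtb37, a zinc finger gene on the opposite strand, but their exons share 0 bases. Zbtb37 had 2.78, 6.58 and 1.57 TPM.

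Snhg1 (ENSMUSG00000108414, chr19:8723475-8726443, plus strand), host of a row of box C/D snoRNAs, was second with 414, 223 and 105 counts. These were 61.8, 58.9 and 22.2 TPM, or 47.7 ± 22.1 (SD, n = 3), with replicate 3 again below the other two. No opposite-strand gene overlaps it; the nearest is Slc3a2, an amino acid transporter subunit, 106 bases away. Slc3a2 had 60.1, 33.8 and 41.2 TPM, so that its lowest library was replicate 2 and not replicate 3.

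Snhg6 (ENSMUSG00000098234, chr1:9941959-9944118, minus strand), host of Snord87, had 139, 84 and 49 counts. Its 53.8, 57.5 and 26.9 TPM gave 46.1 ± 16.7 (SD, n = 3), and it was the 1 gene of the 7 with its highest level in replicate 2. Snhg5 (ENSMUSG00000097195, chr9:88521050-88522929, minus strand), host of the Snord50 pair, had 255, 93 and 81 counts. Its 65.4, 42.1 and 29.4 TPM gave 45.7 ± 18.2 (SD, n = 3), with replicate 1 high and the other two closer together. No gene of the other strand lies within 25091 bases of Snhg5.

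Snhg8 (ENSMUSG00000104960, chr3:123507552-123508404, minus strand), host of Snora24, had 116, 40 and 42 counts. Its 60.3, 36.8 and 31.0 TPM gave 42.7 ± 15.5 (SD, n = 3), the smallest relative gap between replicates 2 and 3 among the 7 genes. Snhg12 (ENSMUSG00000086290, chr4:132308678-132311024, plus strand), host of both C/D and H/ACA snoRNAs, had 165, 68 and 37 counts. Its 45.0, 32.8 and 14.3 TPM gave 30.7 ± 15.5 (SD, n = 3), with replicate 1 highest and replicate 3 lowest. The nearest opposite-strand genes were Prss12, 955 bases from Snhg8 with at most 5 counts in a library, and Trnau1ap, 739 bases from Snhg12 at 45.8, 21.7 and 21.1 TPM.

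Snhg3 (ENSMUSG00000085241, chr4:132348014-132353686, minus strand), host of Snora73a and Snora73b, was the lowest of the 7, with 91, 21 and 16 counts. Its 40.9, 16.7 and 10.2 TPM gave 22.6 ± 16.2 (SD, n = 3), the widest relative spread of the group. In CPM, its count scaled to the library's total count, it stood at 19.1 in replicate 1, with an exact 95% Poisson interval of 15.4 to 23.4. The intervals of replicate 2 (5.06 to 12.5) and replicate 3 (3.25 to 9.23) overlapped each other and not that of replicate 1. These intervals cover counting error only.

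Snhg4, on chromosome 18, has no row named so by identifier. The 1 row that spans 99.2% of the RefSeq Snhg4 locus in the same build had 144, 56 and 34 counts. Its 13.7, 9.41 and 4.58 TPM gave 9.23 ± 4.56 (SD, n = 3), below the mean of each of the 7 genes and, like them, lowest in replicate 3.

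Between neighbours in the order of levels, only some steps exceeded the spread. Gas5 exceeded Snhg1 by 1.17 ± 0.17 (SD, n = 3) in log2(TPM + 1), in 3 of 3 libraries. Snhg1, Snhg6, Snhg5 and Snhg8 followed with steps of -0.01 ± 0.23, 0.01 ± 0.38 and 0.08 ± 0.13, none beyond its SD and each with the same sign in 2 of 3 libraries. Snhg8 exceeded Snhg12 by 0.55 ± 0.46 and Snhg12 exceeded Snhg3 by 0.51 ± 0.40, each in 3 of 3 libraries. With 3 libraries the two-sided exact sign-flip test cannot go below p = 0.25, the value it gave for Gas5 over Snhg1, Snhg8 over Snhg12 and Snhg12 over Snhg3. Of all 21 pairs, 15 kept 1 order in all 3 libraries, including the 6 with Gas5 on top and the 6 with Snhg3 below.

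The length by which counts are divided bears on these levels, because the deposited length of a host is the union of all its annotated exons. For Gas5 that union is 3760 bases in GENCODE vM13, the release used for the counts. Isoforms were taken from the later release vM21, where 20 of the 25 of Gas5 are retained-intron forms. The 5 without a retained intron have a median length of 502 bases. Only the host's own length was exchanged below, while its whole count and the library sum on deposited lengths were kept. Fragments on retained introns thus stayed in the count, so values on the spliced length can be too high. On the median spliced length Gas5 stood at 783 ± 298 TPM and Snhg1 at 257 ± 119 (SD, n = 3). Snhg5 then had 101, Snhg6 94.4, Snhg8 74.6, Snhg12 54.5 and Snhg3 51.0 TPM. On the length free of same-strand genes the means were 127 TPM for Gas5 and 60.3 for Snhg1, and they ran from 32.2 to 50.4 for the other five. Gas5 was first, Snhg1 second, Snhg12 sixth and Snhg3 seventh by mean under all 3 lengths, while Snhg5, Snhg6 and Snhg8 changed places. In replicate 1 alone Snhg3 exceeded Snhg12 on the spliced length, at 92.4 against 79.9 TPM, and on the free length, at 58.3 against 56.6. Their order in 3 of 3 libraries therefore holds on the deposited length and not on the other two.

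**Figure D2:**
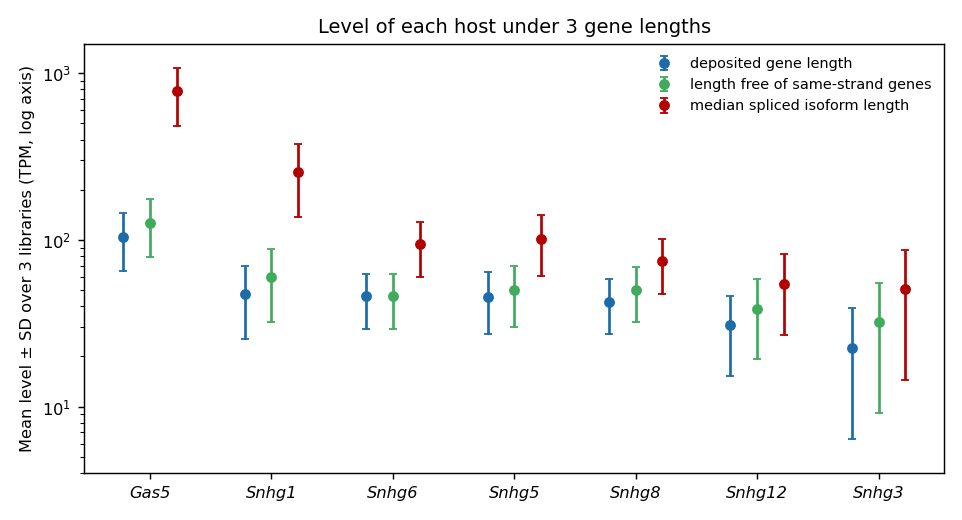
Mean level of each host gene ± SD over 3 libraries (TPM, log axis) under 3 gene lengths, shown by colour. Gas5 rises from 105 to 783 TPM when the spliced isoform length replaces the deposited length, and stays the highest gene under each. Only the host's length is exchanged, so values on the spliced length can be too high.

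The 7 hosts hold 29 annotated snoRNA genes on their own strand, 10 of them in Gas5 and 8 in Snhg1. Snord80 of Gas5 and Snora16a of Snhg12 each have 2 entries at nearly the same position, and each entry is counted. Among all 1507 snoRNA genes tabulated, 9.22% had a count in any library. Of the 29 hosted genes 2 had a count, Snora73a and Snora73b, both in Snhg3. The counting assigned a fragment to a gene only where 1 gene claimed it, so a snoRNA lying within a host exon could gain no count and the host lost the fragment. This holds for 24 of the 29 genes, all at 0 counts. The 2 Snora16a entries of Snhg12 lie outside its exons but cover each other, which leaves neither open to counts under the same rule. These 26 genes have fewer than 10 bases free of other exons on their strand. Their zeros therefore say nothing of the level of the snoRNA.

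**Figure D3:**
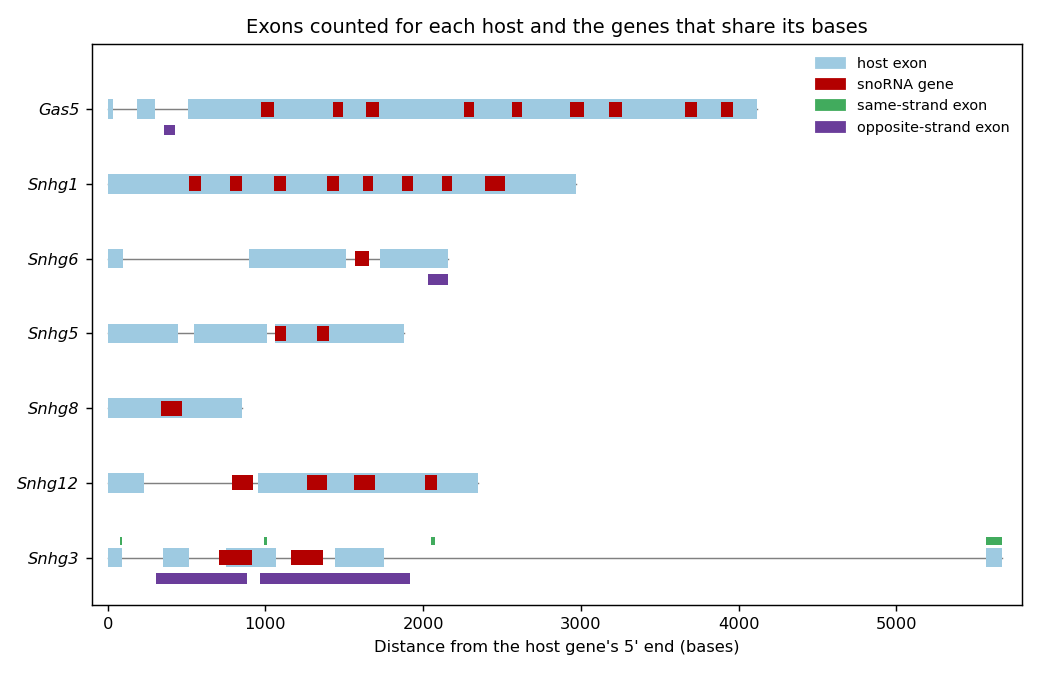
Exons counted for each host gene (blue) by distance in bases from its 5′ end, with snoRNA genes of the same strand (red), other exons of the same strand (green) and exons of the opposite strand (purple). Most snoRNA genes lie inside a host exon, those of Gas5 and Snhg1 entirely so, and the Snhg3 snoRNAs lie above opposite-strand exons.

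The 3 genes with bases of their own were Snord87, Snora73b and Snora73a. Snord87, in an intron of Snhg6 and 87 bases long, had 0 counts in each library. Such a zero allows 3 counts, or up to 15.3, 27.0 and 21.7 TPM in replicates 1, 2 and 3, each below the level of the host in that library. Whether RNAs this short entered the libraries was not tested. The bound is therefore on counted fragments and not on the amount of the snoRNA. Snora73b, wholly in an intron of Snhg3, had 27, 15 and 8 counts, or 132, 73.2 and 39.0 per kilobase against 92.3, 21.3 and 16.2 for the host. Set against the 692 host bases free of same-strand genes, Snhg3 stood at 131.5, 30.3 and 23.1 per kilobase. On that length Snora73b was level with its host in replicate 1 and above it in replicates 2 and 3. Snora73a, with 46 of 205 bases free of host exons, had 6, 18 and 11 counts, or 29.3, 87.8 and 53.7 per kilobase of its full length. Only the 46 free bases were open to counts under the rule above, so these values can be too low. In replicates 2 and 3 they lay above the host on either host length. In replicate 1 the value lay below the host, but whether it would on the free bases was not computed.

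Sequences are printed for the hosted snoRNAs on which these counts turn: the counted pair of Snhg3, the intronic Snord87, the near-identical pair of Snhg5 and 1 exon-embedded gene of Gas5. They were read from the GENCODE vM21 transcripts by gene identifier, in the build of the counts (GRCm38, mm10), on the host's strand, 5′ to 3′. Capitals mark the C box letters TGATGA within the first 20 bases and the D box letters CTGA within the last 15, or ACA within the last 6.
Snora73b, chr4:132352322-132352526, minus strand: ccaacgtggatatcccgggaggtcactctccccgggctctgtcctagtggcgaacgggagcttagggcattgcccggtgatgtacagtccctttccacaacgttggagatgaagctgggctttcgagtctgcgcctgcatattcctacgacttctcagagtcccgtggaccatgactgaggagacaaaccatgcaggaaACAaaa
Snora73a, chr4:132352775-132352979, minus strand: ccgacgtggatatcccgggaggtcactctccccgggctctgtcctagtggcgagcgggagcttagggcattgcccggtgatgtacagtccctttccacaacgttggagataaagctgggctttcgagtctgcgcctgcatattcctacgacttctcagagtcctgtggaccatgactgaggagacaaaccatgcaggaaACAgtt
Snord87, chr1:9942463-9942549, minus strand: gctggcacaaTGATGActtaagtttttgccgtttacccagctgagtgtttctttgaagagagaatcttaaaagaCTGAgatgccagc
Snord50a, chr9:88521529-88521600, minus strand: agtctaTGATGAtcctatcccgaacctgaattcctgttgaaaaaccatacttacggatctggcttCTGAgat
Snord50b, chr9:88521797-88521868, minus strand: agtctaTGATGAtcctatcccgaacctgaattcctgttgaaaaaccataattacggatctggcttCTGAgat
Snord47, chr1:161038082-161038158, plus strand: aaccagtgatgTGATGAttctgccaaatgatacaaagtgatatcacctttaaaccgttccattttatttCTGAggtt

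Snora73a and Snora73b had 198 of 205 bases identical (96.6%) when set side by side without gaps, with a longest shared run of 56 bases. Snord50a and Snord50b had 71 of 72 identical (98.6%). Fragments from such copies can be placed on either, so the counts of Snora73a and Snora73b are uncertain as a split between the pair; together they had 33, 33 and 19 counts. With each entry of Snord80 and Snora16a counted, 17 of the 29 hosted genes (58.6%) held both box letters, against 20.2% of all 1507 snoRNA genes. The ACA was held by 6 (20.7%), against 45.0%. These are matches of letters on the gene's strand only.

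Snhg3 was the host most covered by an opposite-strand gene. Gm17300, annotated as a lincRNA (chr4:132351772-132353382, plus strand), faces 705 exon bases of Snhg3, 71.5% of its length, together with all 205 bases of Snora73b and 175 bases of Snora73a. Gm17300 had 6126, 4897 and 5636 counts, or 1779, 2514 and 2321 TPM, far above each of the 7 hosts. Per kilobase, Snhg3 was at 2.30%, 0.664% and 0.440% of Gm17300 in replicates 1, 2 and 3. The log2 ratio was -6.84 ± 1.24 (SD, n = 3; two-sided exact sign-flip p = 0.25, the smallest possible). The tables give 1 total per gene, so where along Gm17300 the fragments lay cannot be told. Nor was it tested which strand their RNA came from. With the strands exchanged, fragments on the shared bases could count for Snhg3 or its snoRNAs. Snhg3 exons face 46.2% of the exon bases of Gm17300, so how far the ratio would then move cannot be told. The place of Snhg3 as the lowest host carries the same limit.

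Large imbalances in either direction were found at other overlapping genes. In 439 comparisons of a gene with an opposite-strand gene covering at least 50% of its exon bases (300 bases or more, at least 30 counts in the pair), the absolute log2 ratio per kilobase had a median of 4.42. The signed median was 3.92, with quartiles of -0.52 and 5.34, so the covered gene was more often the higher one, while Snhg3 was the lower one. The absolute ratio exceeded 4 in 264 (60.1%), and 49 were at least as far from 0 as the -6.39 of Snhg3 over Gm17300 in summed counts. On its own strand Snhg3 also shares 135 exon bases with Rcc1, the exchange factor of the Ran GTPase, and fragments on those bases count for neither. Rcc1 had 659, 216 and 197 counts, and like Snhg3 it was highest in replicate 1.

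Snhg6 was the other host with exon overlap, 127 bases (11.1% of its length) facing Mcmdc2, a meiotic recombination gene. Mcmdc2 had 514, 458 and 355 counts, or 38.5, 60.7 and 37.7 TPM. The log2 ratio of Snhg6 to Mcmdc2 per kilobase was 0.48, -0.08 and -0.49 in replicates 1, 2 and 3, or -0.03 ± 0.49 (SD, n = 3; exact sign-flip p = 0.75). The sign of this mean rests on replicate 3, without which it was 0.20.

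**Figure D4:**
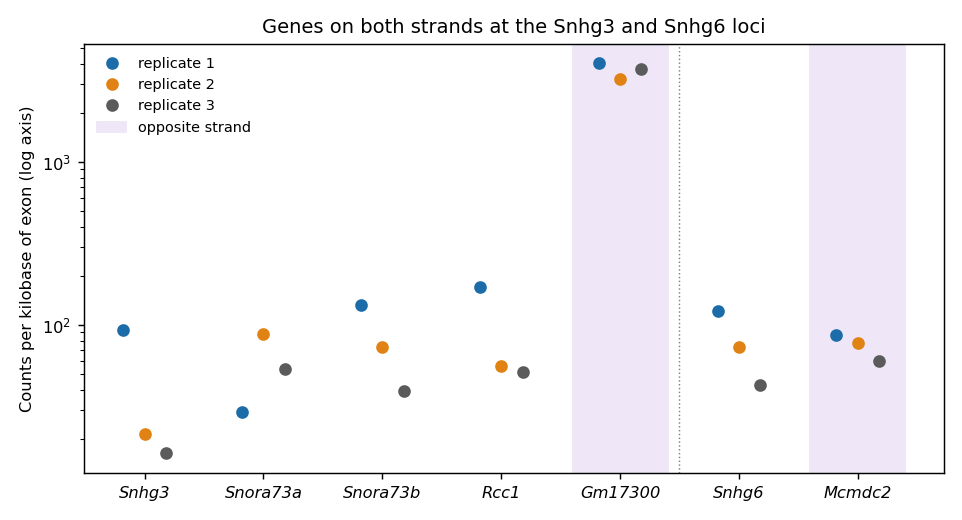
Counts per kilobase of exon (log axis) in each library for the genes at the Snhg3 locus, left of the dotted line, and the Snhg6 locus, right of it; shaded columns are genes of the opposite strand. Gm17300, at 3207 to 4012 counts per kilobase, lies above every other gene shown, and the libraries of Snhg6 and Mcmdc2 overlap.

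All 7 hosts were lowest in replicate 3 on the TPM scale, and 6 were highest in replicate 1. As deviations from each gene's own mean in log2(TPM + 1), their medians were 0.55, 0.23 and -0.73 in replicates 1, 2 and 3. Coding genes with a mean of at least 1 TPM shifted the same way by less, with medians of 0.32, 0.11 and -0.41, and 67.5% of those 9932 genes were lowest in replicate 3 and 57.0% highest in replicate 1. After TMM scaling (edgeR's trimmed mean scaling) of CPM, the median of all genes at 1 TPM or more was 0.04, -0.05 and 0.01, and that of the hosts was 0.28, 0.12 and -0.36. On that scale 6 of the 7 hosts were lowest in replicate 3, against 44.3% of coding genes, 35.2% of all genes and 30 of 38 coding hosts, the exception being Snhg8 with 21.9, 14.7 and 17.5 scaled CPM. Highest in replicate 1 were 4 of the 7, against 38.5% of coding genes, since Gas5, Snhg1 and Snhg6 then peaked in replicate 2. With TPM taken over clear genes (those whose exons meet no gene body of the other strand) and the hosts, 5 of 7 were lowest in replicate 3 and 4 highest in replicate 1. The matching shares of other genes were not computed on that scale, so these counts have no background. The shared pattern of the hosts thus depends in part on the scaling.

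**Figure D5:**
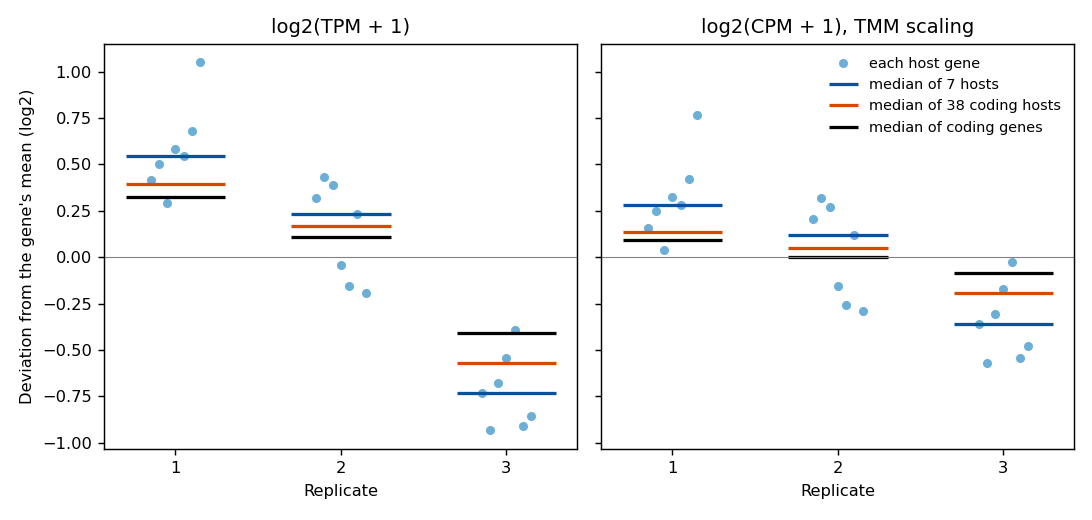
Deviation of each host gene from its own mean (log2) in the 3 libraries, on the TPM scale (left) and after TMM scaling (right); bars are medians of the 7 hosts, of 38 coding hosts and of coding genes. The hosts' median in replicate 3 is -0.73 on the left and -0.36 on the right, below the coding-gene median in both.

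The SD of log2(TPM + 1) over the 3 libraries ran from 0.49 for Snhg8 through 0.56 for Snhg5, 0.59 for Snhg6 and 0.64 for Gas5 to 0.81 for Snhg1, 0.82 for Snhg12 and 0.97 for Snhg3. Of 13252 genes at a mean of 1 TPM or more, 17.5% varied more than Snhg3 and 59.4% more than Snhg8. After TMM scaling the SD was 0.31 for Gas5, 0.50 for Snhg1 and 0.67 for Snhg3. The edgeR tagwise biological coefficient of variation ran from 0.291 for Gas5 to 0.363 for Snhg3, around the common value of 0.312. The share of counts on genes facing opposite exons, the sex markers and the depth also differed between these libraries, and their part in the hosts' deviations was not tested.

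Among 38 protein-coding genes listed as snoRNA hosts, ribosomal proteins and translation factors for the most part, 38 were detected and 38 were lowest in replicate 3. Over all genes 20.9% were detected, and the share of coding genes alone was not computed. Of coding genes with a mean of at least 1 TPM, 67.5% were lowest in replicate 3. The coding hosts' median level was 533, 465 and 263 TPM in replicates 1, 2 and 3, against 60.3, 42.1 and 26.9 for the noncoding hosts. The log2 ratio of the medians was -3.30 ± 0.16 (SD, n = 3), and so changed less between libraries than either level. A ratio within a library cancels shifts common to its genes, and coding genes in general shifted the same way. Whether the steadier ratio is particular to coding hosts was not tested. Rpl4 at 2526 TPM and Rpl23a at 2146 were the highest coding hosts, and the lowest were Cnot1 at 19.7, Tnpo2 at 21.8 and Rpl13a at 24.5.

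Of 15 other noncoding hosts listed, 12 were matched and 6 were detected. Snhg14, Epb41l4aos and Zfas1 were the highest, at 48.9 ± 11.0, 43.2 ± 32.4 and 40.4 ± 18.9 TPM (SD, n = 3), between the means of Snhg12 and Gas5. Snhg14 faces exons of Ube3a over 1803 bases and Zfas1 those of Znfx1 over 82. Snhg11, Meg3, Snhg18 and Rian had a level of 0 in each library. Of 9 other long noncoding RNAs matched, 2 were detected, Malat1 at 56.2 and Tug1 at 16.3 TPM. The detected share of genes annotated as lincRNA or processed transcript was 7.93%. Malat1 faces opposite-strand exons over 878 bases and Tug1 over 180, and 6 of the 9 face some.

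Genes of the machinery that acts on hosts and snoRNAs had counted fragments in every library. The detected share of coding genes alone was not computed. The counts below stand only beside the 20.9% detected over all genes, noncoding ones included. All 19 listed proteins of snoRNA particles and their assembly were detected, at a median of 78.3 TPM. They ranged from Nolc1, a nucleolar chaperone at 381 TPM, with Nhp2 at 242 and Nop56 at 205, to Nufip1 at 28.5, Naf1 at 26.2 and Shq1 at 4.28. All 15 listed factors of nonsense-mediated decay and the exon junction complex were detected, at a median of 23.1 TPM. Magoh at 163, Eif4a3 at 140 and Rbm8a at 103 TPM were the highest, and the nuclease Smg6 at 11.7, Smg8 at 12.0 and Smg9 at 13.1 the lowest. Of 8 genes of growth signalling to pyrimidine-start transcripts and the glucocorticoid receptor, to which Gas5 RNA is known to bind, 8 were detected. The list runs from Larp1, the binder of such transcripts, at 122 TPM, with Eif4ebp2 at 26.1 and Eif4ebp1 at 16.6, to Mtor at 9.13, the receptor Nr3c1 at 4.92 and Rptor at 4.27.

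By the root mean square difference between profiles of log2(TPM + 1) over the 3 libraries, the detected listed hosts most like Gas5 were Rpl30 (0.010), Nop58 (0.034) and Snhg15 (0.048), out of 44. Rpl30 had 242, 225 and 110 TPM. Those nearest to the median profile of the 7 hosts were Eif4a1 (0.051), Rpl10 (0.056) and Cct6a (0.058). Among 10558 genes, 9 were as near to Gas5 as Rpl30, 120 as near as Nop58 and 217 as near as Snhg15. For the median profile, 145 genes were as near as Eif4a1.

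RefSeq start sites (GRCm38.p6) were matched for 6 of the 8 symbols, with 7 entries, and are shown because a pyrimidine start is the known shared mark of these transcripts. Each line runs from 10 bases before the annotated start to 20 from it on, 5′ to 3′ on the gene's strand, and capitals mark the unbroken run of C or T from the start.
Gas5, downstream entry, chr1:161035156-161035185, plus strand: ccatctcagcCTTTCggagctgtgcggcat
Snhg8, chr3:123508317-123508346, minus strand: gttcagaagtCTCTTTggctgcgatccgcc
Snhg12, chr4:132308668-132308697, plus strand: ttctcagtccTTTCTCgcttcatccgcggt
Snhg1, chr19:8723477-8723506, plus strand: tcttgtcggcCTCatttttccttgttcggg
A C at the start followed by pyrimidines to a run of at least 5 was found in 2 of the 7 entries, those of Gas5 and Snhg8 above. It was found in 823 of 32851 entries of all genes (2.51%) and in 1 of 29 entries of the coding hosts. Snhg12 began with T in a run of 6, Snhg1 with a run of 3, and the entries of Snhg3 and Snhg5 and the upstream entry of Gas5 began with G. The entries are annotated positions, which the gene totals do not test, and no match says only that these letters are not there.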

How the data were processed

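Whole-number counts of fragments per gene were deposited for each of 3 libraries. Per the file headers, the authors ran featureCounts v1.4.6-p4 on read pairs over exons of GENCODE vM13 on mm10, with strand setting 1 and no assignment of a fragment claimed by several genes. The aligner's version is not given in the sources used here, nor is the kit. The labels name total RNA, while the protocol they link is named for poly(A) RNA. The length per gene, in bases, came with the counts. TPM, counts per kilobase and CPM were computed here from these counts and lengths, and log values carry a pseudocount of 1. Of 50600 genes, 50376 were named from GENCODE vM21, and 123 of 128 entries of 9 gene lists were matched. Strand overlaps were computed from the deposited exon coordinates. A gene was called clear where its exons meet no gene body on the other strand.

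Members were matched by symbol alone, but the set of symbols, the lists and several alternatives were chosen with earlier results of these data known. The genes named are the members, genes overlapping their exons, hosted snoRNA genes with a count and up to 3 others per host, the 3 highest and 3 lowest of each list, and the 3 nearest profiles. A list gene that this rule takes is not reported here. Tbx21, Ifng, Xist, the Y-linked genes, mt-Nd6, mt-Co1 and the nearest opposite-strand genes without overlap were added after values were seen. With 1 group no conditions were compared. Dispersions used edgeR with TMM and filterByExpr, an intercept alone. On counts simulated at these depths with a coefficient of variation of 0.3 in 10051 genes, the common estimate was 0.293. Ratios were tested with a two-sided exact sign-flip test, whose smallest p with 3 libraries is 0.25. No 2 libraries agreed within sampling noise: the chi-square per degree of freedom was 14.2, 32.8 and 23.7. Alternatives were other units, lengths, thresholds, pseudocounts and scalings (DESeq2 size factors), and each replicate left out. Python 3.11.15, pandas 2.3.3, SciPy 1.17.1, edgeR 4.0.16, DESeq2 1.42.0 and R 4.3.3 served for the computations.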

Additional observations from a re-analysis of the deposited data

How the results depend on the processing

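No paired analysis was possible because there was 1 group. The count of 7 detected hosts was the same at 5 TPM, at 10 counts and without each replicate. The median level of 43.1 TPM rose to 164 TPM over clear genes and the hosts. It rose to 86.3 on the spliced isoform length, with counts and library sum unchanged, a choice made with the values known. On the deposited length it ran from 34.5 to 51.2 without 1 replicate. The summed share ran from 0.0280% to 0.0413% of TPM without 1 replicate. The median SD of log2(TPM + 1), 0.64, was 0.31 after TMM scaling and 0.30 over clear genes and the hosts, both added after the data were seen. It was 0.32 without replicate 3, 0.81 without replicate 2 and 0.74 without replicate 1. The median edgeR coefficient of variation, 0.311, ran from 0.287 to 0.343 without 1 replicate. The log2 ratio of Snhg6 to Mcmdc2 ran from -0.28 to 0.20 without 1 replicate, positive without replicate 3. That of Snhg3 to Gm17300 ran from -7.53 to -6.34 and kept its sign under every alternative run. The cause of these shifts was not tested. Depth limits Snhg3 most, with 16 and 21 counts in its shallow libraries. The snoRNA genes are limited by the counting rule, under which 26 of 29 could hardly be counted at any depth.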
